A study of Homo sapiens with 7 samples.

Results

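CALCB, BRSK2 and ZNF37A are 3 of the 16044 genes with counted poly(A) sites (PASs) in HEK293 cells, chosen for their fall after knockdown (KD) of the poly(A) polymerase (PAP) Star-PAP. They were chosen by the fitted log2 fold change of siStar-PAP against siCtrl over both batches, which was −3.74 for CALCB, −3.22 for ZNF37A and −2.96 for BRSK2. They had the largest falls among the 99 genes with an adjusted p below 0.05 in edgeR's quasi-likelihood test, a fall in each of the batches and a minimum of 50 reads per batch. Next in that order, just outside, stood PTGES at −2.84, and BRSK2 had 55 reads in batch 2 against the limit of 50. Among all 11878 genes tested, 25 had a lower fold change than CALCB, 35 than ZNF37A and 45 than BRSK2. These values describe the choice and are not evidence for it. The question that the other libraries could address was whether each fall was seen in every PAP KD or was particular to Star-PAP, and at which PASs.

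A PAP adds the poly(A) tail to an RNA after the cleavage machinery, guided by a signal such as AAUAAA a short distance upstream, has cut it at a PAS. PAPα and PAPγ are the canonical nuclear enzymes, and Star-PAP, encoded by TUT1, is a non-canonical nuclear enzyme of the same kind. A gene with several PASs makes alternative polyadenylation (APA) isoforms that differ at their 3′ ends. CALCB encodes beta-CGRP, a secreted neuropeptide of the calcitonin family that dilates blood vessels. BRSK2 encodes a serine/threonine kinase of the AMPK-related family that is activated by LKB1 and is best known from neurons, where it acts in polarity. ZNF37A encodes a KRAB-type C2H2 zinc finger protein, a member of the largest family of DNA-binding proteins in human.

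All groups were HEK293 cells, an established human line derived from embryonic kidney, after siRNA transfection, with total RNA as the starting material. 3′READS sequences the fragment next to the poly(A) tail, so a read marks the PAS of an RNA and needs no division by gene length. Batch 1 held siCtrl (control siRNA), siStar-PAP, siPAPα and siPAPγ, the library with KD of PAPα and PAPγ together (siPAPα+siPAPγ), whose batch is not labelled, comes with that same siCtrl library, and batch 2 was a further pair of siCtrl and siStar-PAP libraries prepared by 3′READS+. The batch and the protocol cannot be told apart. There was 1 library for each condition in a batch, and the labels do not say whether libraries of a condition came from separate cultures.

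Depth and labels were checked first. The libraries held between 2347192 and 16191098 reads at listed PASs, which were 54.5% to 70.5% of their reads with an untemplated poly(A) stretch (PASS reads). Levels are given in RPM, the reads of a gene or PAS for every 1e6 PASS reads, with exact Poisson intervals at the 95% level. All intervals treat reads as independent and cover counting error only, since there was 1 library for each condition in a batch. Reads copied from the same molecule by PCR would make them too narrow. TUT1 had 83 reads in siCtrl and 2 in siStar-PAP of batch 1, but 6 and 4 in batch 2, too few to check that label. PAPOLA, the gene of PAPα, had 71 reads in siCtrl against 12 in siPAPα, and 78 against 8 in the table of siPAPα+siPAPγ. PAPOLG, the gene of PAPγ, had 5 reads in siCtrl and 15 in the library labelled siPAPγ, so its counts were too low to check that label and did not fall. These counts are of RNA, and the paper reports that immunoblots showed effective KD of each PAP at the protein level. It adds that no KD appeared to alter expression of the other PAPs. All 5 HEK293 markers looked for (PAX2, NEFM, NEFL, CDH2 and VIM) were listed. PAX2 had only 0 to 14 reads in a library, and NEFM had 3 in siCtrl and 1 in siStar-PAP of batch 2. Of 5 markers of other cell types, PTPRC, CD3E, ALB and CDH5 were not listed and COL1A1 had 0 to 12 reads in a library.

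The level of CALCB was high in siCtrl and low in every KD library. With siCtrl at 110 RPM, it was 5.50 in siPAPα, 5.68 in siPAPγ, 4.04 in siPAPα+siPAPγ and 10.8 in siStar-PAP, and in batch 2 it was 203 RPM in siCtrl and 6.12 in siStar-PAP. These levels rest on 1260, 138, 84, 76 and 179 reads, and on 1023 and 26 reads in batch 2. No KD library came near a control library, and the intervals of the 5 KD libraries lay between 3.19 and 12.5 RPM. Within that range, siPAPα, siPAPγ and siStar-PAP of batch 2 had overlapping intervals, and siStar-PAP of batch 1 lay above siPAPα and siPAPγ.

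**Figure D1:**
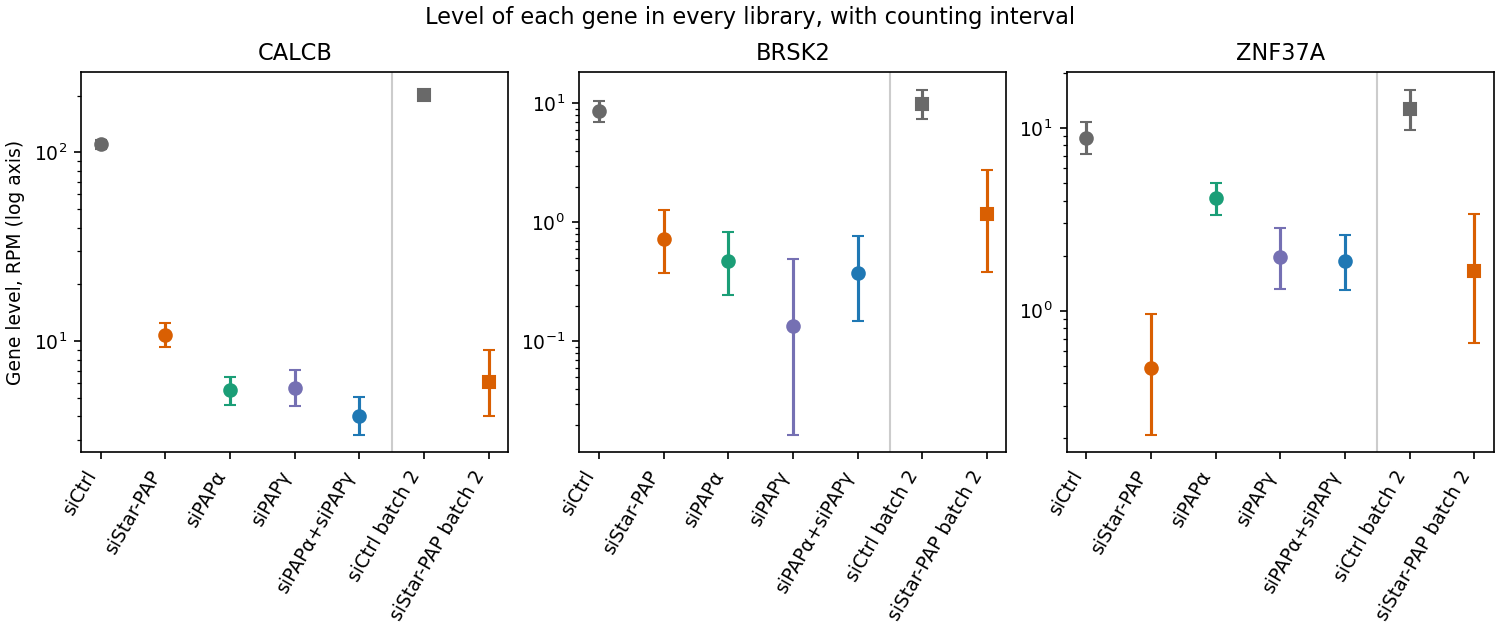
The level of CALCB, BRSK2 and ZNF37A in RPM on a log axis in each of the 7 libraries, with circles for batch 1 and for the siPAPα+siPAPγ library and squares for batch 2. Bars are exact Poisson intervals at the 95% level. CALCB and BRSK2 are low in all 5 KD libraries, and ZNF37A spreads from 0.483 RPM in siStar-PAP to 4.11 in siPAPα.

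CALCB lies on the plus strand of chromosome 11 (chr11:15095139-15100183, hg19), and both of its listed PASs are in the 3′ UTR within its last exon. They are 100 nt apart, and the distal PAS is the annotated end of the transcript. The 30 bases that end at each PAS are shown because their signals differ, with the poly(A) signal in capitals.
CALCB proximal PAS, chr11:15100054-15100083: ttcatcaagATTAAAagcatattttgggta
CALCB distal PAS, chr11:15100154-15100183: ataatAATAAAtatttttgagtgcttacta
The distal PAS with AATAAA carried nearly all CALCB reads in every library. It had 1256 of 1260 reads in siCtrl, 138 of 138 in siPAPα, 84 of 84 in siPAPγ, 74 of 76 in siPAPα+siPAPγ and 163 of 179 in siStar-PAP. In batch 2 it had 1006 of 1023 reads in siCtrl and 26 of 26 in siStar-PAP. The fall of the gene was therefore a fall at this PAS, from 110 RPM to between 3.94 and 9.85 RPM in the KD libraries set against siCtrl of batch 1.

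The proximal CALCB PAS with ATTAAA was used little. Its share of the gene was 0.317% in siCtrl (exact Clopper-Pearson interval 0.0866% to 0.811%) and 8.94% in siStar-PAP (5.20% to 14.1%), which is 4 and 16 reads. On the RPM scale it was 0.350 in siCtrl (0.0954 to 0.896) and 0.967 in siStar-PAP (0.553 to 1.57), and these intervals overlap. In batch 2 it had 17 of 1023 reads in siCtrl and 0 of 26 in siStar-PAP, which allows a share of up to 11.5% when 3 reads are taken as the limit for a count of 0. It had 0 of 138 reads in siPAPα, which allows up to 2.17%, and 0 of 84 in siPAPγ, which allows up to 3.57%. The higher share in siStar-PAP of batch 1 was not seen in batch 2, where 26 reads allow a share as large.

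The level of BRSK2 was also low in every KD library. With siCtrl at 8.58 RPM, it was 0.478 in siPAPα, 0.135 in siPAPγ, 0.372 in siPAPα+siPAPγ and 0.725 in siStar-PAP, and in batch 2 it was 9.90 RPM in siCtrl and 1.18 in siStar-PAP. The reads behind them were 98, 12, 2, 7 and 12, and 50 and 5 in batch 2. The 2 control libraries had overlapping intervals (6.96 to 10.5 and 7.35 to 13.1 RPM). All 5 KD libraries lay below both controls, and the intervals of the KD libraries overlapped each other.

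BRSK2 spans chr11:1411164-1483919 on the plus strand, on the same chromosome as CALCB but far from it. Of its 4 listed PASs, 1 is in an intron and 3 are in the 3′ UTR of the last exon. The most used PAS has no canonical signal and lies 1021 nt after the stop codon, 945 nt short of the annotated end, where the weaker PAS has AATAAA. Both are shown with the signal in capitals.
BRSK2 most used PAS, chr11:1482945-1482974: gaattcctgcaagatattttTATAAActtt
BRSK2 PAS at the transcript end, chr11:1483890-1483919: ccggaacAATAAAtcccttccgcaaagaca
The most used PAS, whose nearest signal variant TATAAA starts only 9 nt upstream, had 96 reads in siCtrl, 9 in siPAPα, 2 in siPAPγ, 7 in siPAPα+siPAPγ and 12 in siStar-PAP. In batch 2 it had 43 reads in siCtrl and 5 in siStar-PAP. The PAS at the transcript end was listed in the table of batch 1 only, with 2 reads in siCtrl and 3 in siPAPα. The intronic PAS at position 1413051 and a 3′ UTR PAS at 1483343 were listed in batch 2 only, with 3 and 4 reads, all in siCtrl. The reads at the minor PASs were too few to compare.

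ZNF37A was low in every KD library, but to different degrees. With siCtrl at 8.84 RPM, it was 4.11 in siPAPα, 1.96 in siPAPγ, 1.86 in siPAPα+siPAPγ and 0.483 in siStar-PAP, and in batch 2 it was 12.7 RPM in siCtrl and 1.65 in siStar-PAP. The reads behind them were 101, 103, 29, 35 and 8, and 64 and 7 in batch 2. In batch 1 the intervals of siStar-PAP (0.209 to 0.952), siPAPγ (1.31 to 2.82), siPAPα (3.35 to 4.98) and siCtrl (7.20 to 10.7) did not overlap. siPAPα+siPAPγ (1.30 to 2.59) lay at the level of siPAPγ. siStar-PAP of batch 2 (0.662 to 3.39) overlapped siPAPγ, siPAPα+siPAPγ and, at its upper end, siPAPα.

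Set against the siCtrl library of its own table, CALCB was 20.0-fold lower in siPAPα (interval 16.8 to 24.1), 19.4-fold lower in siPAPγ (15.6 to 24.5), 27.3-fold lower in siPAPα+siPAPγ (21.6 to 34.8) and 10.2-fold lower in siStar-PAP (8.71 to 12.0). In batch 2 it was 33.1-fold lower in siStar-PAP (22.5 to 50.9). BRSK2 was 17.9-fold lower in siPAPα (9.81 to 35.9), 22.6-fold in siPAPα+siPAPγ (10.5 to 57.6), 11.8-fold in siStar-PAP (6.47 to 23.7) and, in batch 2, 8.42-fold in siStar-PAP (3.38 to 27.0). In siPAPγ, with 2 reads, its level was 1.58% of siCtrl (0.188% to 5.85%). ZNF37A was 18.3-fold lower in siStar-PAP (8.93 to 43.5) and 7.70-fold in batch 2 (3.53 to 19.9), against 2.15-fold in siPAPα (1.62 to 2.86, an interval that holds 2-fold), 4.51-fold in siPAPγ (2.96 to 7.07) and 4.89-fold in siPAPα+siPAPγ (3.30 to 7.39). These ratios have no replicate check. In bulk RNA, fewer cells with a transcript and less of it per cell cannot be told apart.

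**Figure D2:**
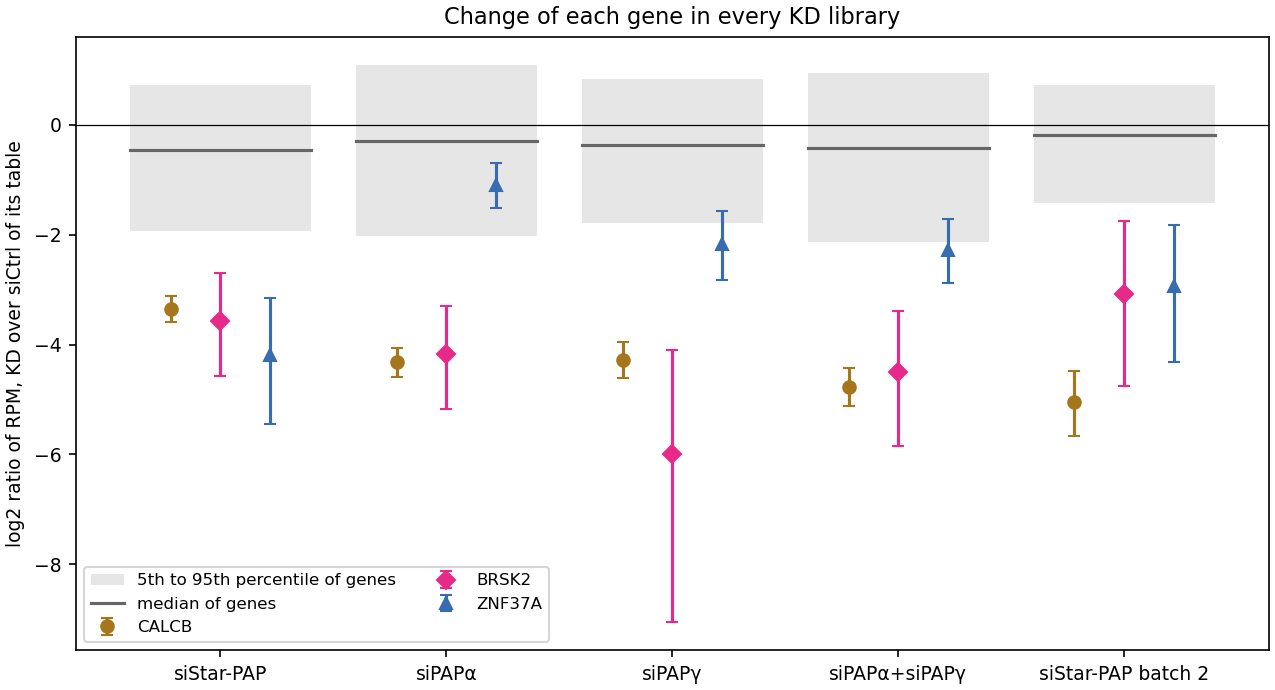
The log2 ratio of RPM of each KD library over the siCtrl library of its table for CALCB (circles), BRSK2 (diamonds) and ZNF37A (triangles), with exact intervals at the 95% level. Grey boxes run from the 5th to the 95th percentile of 4819 genes with at least 50 reads in each siCtrl library, with their median as a line. CALCB and BRSK2 lie below the box in every KD, and ZNF37A lies inside it in siPAPα at −1.11.

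With PASS totals, all 3 genes were more than 2-fold lower in each of the 5 KD libraries, and so were many other genes. For ZNF37A in siPAPα this rests on the scaling. Its log2 ratio was −1.11 with PASS totals, −0.98 with the totals of the deposited tables, −0.80 by DESeq2 and −0.77 by TMM. It rests on the PAS set too, since over PASs listed in all 3 tables, still scaled by PASS totals, the ratio was −0.48. That set leaves out the most used PAS, listed at no position shared by all 3 tables, with 82 of the 101 siCtrl reads. Left were the PASs 246 and 2912 nt after the stop codon, with 6 and 1 siCtrl reads against 0 and 11 in siPAPα. The share of genes more than 2-fold lower was 24.2% in siPAPα, 22.4% in siPAPγ and 27.8% in siStar-PAP, each of 8277 genes with at least 50 siCtrl reads. It was 28.9% of 7983 such genes in siPAPα+siPAPγ and 12.5% of 5522 in siStar-PAP of batch 2. Nothing is read from the siStar-PAP shares, since that contrast chose the genes. siCtrl of batch 1 stands in the denominator of 4 of the 5 ratios and was one of the libraries that chose the genes, so those ratios are independent neither of each other nor of the choice. The place of each gene among the 4819 ranked genes shows how far it lay from the rest. The number of genes with a still lower ratio was, for CALCB, 6 in siPAPα, 3 in siPAPγ, 3 in siPAPα+siPAPγ, 16 in siStar-PAP and 0 in siStar-PAP of batch 2. For BRSK2 it was 8, 0, 4, 12 and 10 in the same order. For ZNF37A it was 879, 126, 183, 3 and 12. The places in the siStar-PAP libraries follow from the choice and cannot be set against those in the other KDs.

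The median gene also moved, and the scaling sets by how much. Over genes with at least 50 siCtrl reads, the median log2 ratio was between −0.51 and −0.21 in the 5 KD libraries with PASS totals and between −0.04 and −0.01 with TMM factors. Relative to the median of the 4819 ranked genes, the log2 ratio of CALCB ran from −4.86 to −2.90 over the 5 KD libraries and that of BRSK2 from −5.62 to −2.88. That of ZNF37A was −0.81 in siPAPα, −1.81 in siPAPγ, −1.87 in siPAPα+siPAPγ, −3.74 in siStar-PAP and −2.75 in siStar-PAP of batch 2.

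The KD libraries were also set against each other without siCtrl. The siStar-PAP library had 1.97 times the CALCB level of siPAPα (interval 1.57 to 2.47) and 1.91 times that of siPAPγ (1.46 to 2.50), whereas it had 0.118 times the ZNF37A level of siPAPα (0.0495 to 0.241) and 0.247 times that of siPAPγ (0.0974 to 0.553). CALCB was thus higher and ZNF37A lower in siStar-PAP of batch 1 than in the KDs of the canonical PAPs. For BRSK2 the ratio to siPAPα was 1.52 (0.623 to 3.69), to siPAPα+siPAPγ 1.95 (0.707 to 5.84) and to siPAPγ 5.36 (1.19 to 49.3), the last on 12 and 2 reads. These ratios use the siStar-PAP library that chose the genes and carry no test. The fall of CALCB in siStar-PAP was deeper in batch 2, where siCtrl itself had 1.84 times the CALCB level of siCtrl in batch 1 (1.69 to 2.00).

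The 3 libraries with KD of canonical PAPs had no part in the choice and were compared with two-sided Fisher's exact tests, adjusted over all genes with at least 10 reads in a pair. ZNF37A was higher in siPAPα than in siPAPγ, with a ratio of 2.09 (1.38 to 3.28) and an adjusted p of 0.000904 by Fisher's exact test, where 50.2% of 13212 genes passed in either direction. It was lower in siPAPα+siPAPγ than in siPAPα, with a ratio of 0.454 (0.300 to 0.672) and an adjusted p of 0.000113 by the exact test, where 52.9% of genes passed. Between siPAPα+siPAPγ and siPAPγ its ratio was 0.950 (0.564 to 1.61) and the adjusted p 0.942 by the exact test, where 47.1% of genes passed. With about this share of all genes past the threshold, the ZNF37A calls do not set it apart from other genes. Both calls were lost over PASs listed in all 3 tables, with adjusted p of 0.682 and 0.397 by the exact test, on 11 and 4 reads of siPAPα and siPAPγ and on 4 and 11 of siPAPα+siPAPγ and siPAPα. The tests compare single libraries by their reads and take in no variation between cultures.

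CALCB did not pass in any of these pairs. Its ratio of siPAPα to siPAPγ was 0.969 (0.733 to 1.29), so a difference larger than about that interval was not seen, and the adjusted p was 0.888 by Fisher's exact test. siPAPα+siPAPγ had 0.735 times the CALCB level of siPAPα (0.548 to 0.980) with an adjusted p of 0.0596 by the exact test, and 0.712 times that of siPAPγ (0.515 to 0.983) with 0.0756. For BRSK2 the ratio of siPAPα to siPAPγ was 3.54 (0.788 to 32.6) with an adjusted p of 0.161 by the exact test, and that of siPAPα+siPAPγ to siPAPα was 0.779 (0.260 to 2.15) with 0.735. The third BRSK2 pair held under 10 reads and was not tested. These wide intervals leave room for a difference of several fold.

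ZNF37A has the most PASs of the 3 genes. It lies on the plus strand of chromosome 10 (chr10:38383265-38413553, hg19), and its 11 listed PASs, after joining positions within 24 nt, are 1 in an intron and 10 in the last exon or just past it. The last exon holds the end of the coding sequence and a 3′ UTR in which the PASs are spread over several kilobases. The most used PAS is not in the 3′ UTR. It lies in the coding sequence, 10 to 35 nt before the end of the stop codon, and was listed at position 38407734 in the table of batch 1, at 38407730 and 38407755 in that of siPAPα+siPAPγ and at 38407755 in batch 2. An RNA cleaved there would lack the stop codon in the annotated reading frame. Sequences around it are shown with those of the PASs far downstream that were read in the KD libraries, with the signal in capitals.
ZNF37A most used PAS, batch 1, chr10:38407705-38407734: gagAATACActtggggagaaaccctataaa
ZNF37A most used PAS, batch 2, chr10:38407726-38407755: ccctataaatgtAGTAAAcgagggaaatta
ZNF37A PAS 2912 nt after the stop codon, chr10:38410648-38410677: ggaacaaataAATAAAttgttgtgtgtgca
ZNF37A PAS 4500 nt after it, chr10:38412236-38412265: ttaaaAATAAAgttaatttcaatgtttaaa
ZNF37A PAS 5657 nt after it, chr10:38413393-38413422: acaaagGATAAAtgcttgaggttatggata
ZNF37A PAS 5998 nt after it, chr10:38413734-38413763: taattaaacgccacctgaATTAAAatttga
The PAS at 5998 nt lies 210 nt past the annotated end of the transcript. Signals were searched in a set order, given below, and only the first kind found is in capitals, at its copy nearest the PAS. Both windows of the most used PAS also hold TATAAA, which in that of batch 1 ends at the PAS itself. The windows at 2912 and 5998 nt each hold the same signal again farther upstream. The 30 bases of the PAS at 5657 nt occur at 3 places in the genome, which can make reads at that PAS uncertain, and each of the other windows shown occurs at 1. Only uniquely aligned reads were counted, and whether the full reads at that PAS have other places was not tested. The 10 bases after the most used PAS hold 4 As at position 38407734 and 1 at 38407755, and 1.42% of the 51882 PASs of batch 1 have 6 or more.

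The level at the most used ZNF37A PAS was lower in every KD library than in its control. It had 82 reads in siCtrl, 63 in siPAPα, 12 in siPAPγ, 6 in siPAPα+siPAPγ and 0 in siStar-PAP, and in batch 2 it had 54 in siCtrl and 5 in siStar-PAP. In RPM that was 7.18, 2.51, 0.811, 0.319 and 0, and 10.7 and 1.18 in batch 2. With 3 reads taken as the limit for a count of 0, siStar-PAP had at most 0.181 RPM there, at least 39.6-fold lower than siCtrl, and the upper end of its exact Poisson interval was 0.223 RPM. The 8 ZNF37A reads of siStar-PAP in batch 1 were all at the PAS 5657 nt after the stop codon, where siCtrl had 0, siPAPα 17 and siPAPγ 3. In batch 2 the siStar-PAP reads were 5 at the most used PAS and 2 at the PAS 2912 nt after the stop codon, where siCtrl had 8. In siPAPα+siPAPγ the PAS 4500 nt after the stop codon had the most reads, 14 of 35. There siCtrl had 1 read, siPAPα 5 and siPAPγ 0. Another PAS in the coding sequence, 1303 nt before the end of the stop codon, was listed for siPAPα+siPAPγ and its siCtrl only. It had 6 of 35 reads in siPAPα+siPAPγ and 0 in siCtrl.

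The last-exon PASs of ZNF37A were then summed in a group up to 837 nt after the stop codon, near PASs, and a group from 2912 nt on, far PASs, a split that was made after the values were seen and carries no test. Near PASs had 8.40 RPM in siCtrl, 2.63 in siPAPα, 0.811 in siPAPγ, 0.745 in siPAPα+siPAPγ and 0 in siStar-PAP, and 11.1 in siCtrl and 1.18 in siStar-PAP of batch 2. The 14 near reads of siPAPα+siPAPγ include the 6 at the PAS 1303 nt before the end of the stop codon. Far PASs had 0.175 RPM in siCtrl (0.0212 to 0.632), 1.47 in siPAPα (1.04 to 2.03), 1.15 in siPAPγ (0.669 to 1.84), 0.958 in siPAPα+siPAPγ (0.568 to 1.51) and 0.483 in siStar-PAP (0.209 to 0.952). In batch 2 they had 1.58 RPM in siCtrl (0.684 to 3.12) and 0.471 in siStar-PAP (0.0570 to 1.70). Near PASs were lower in every KD library than in its control. Far PASs of siPAPα and siPAPγ had intervals above that of siCtrl of batch 1, and for siStar-PAP they overlapped siCtrl in both batches. Without the PAS at 5657 nt, whose reads may be uncertain, a sum chosen after seeing the data, far PASs had 20 reads and 0.797 RPM in siPAPα (0.487 to 1.23), 14 reads and 0.946 RPM in siPAPγ (0.517 to 1.59) and 0 reads in siStar-PAP of batch 1, while siCtrl kept its 2 reads. The intervals of siPAPα and siPAPγ then overlapped that of siCtrl.

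**Figure D3:**
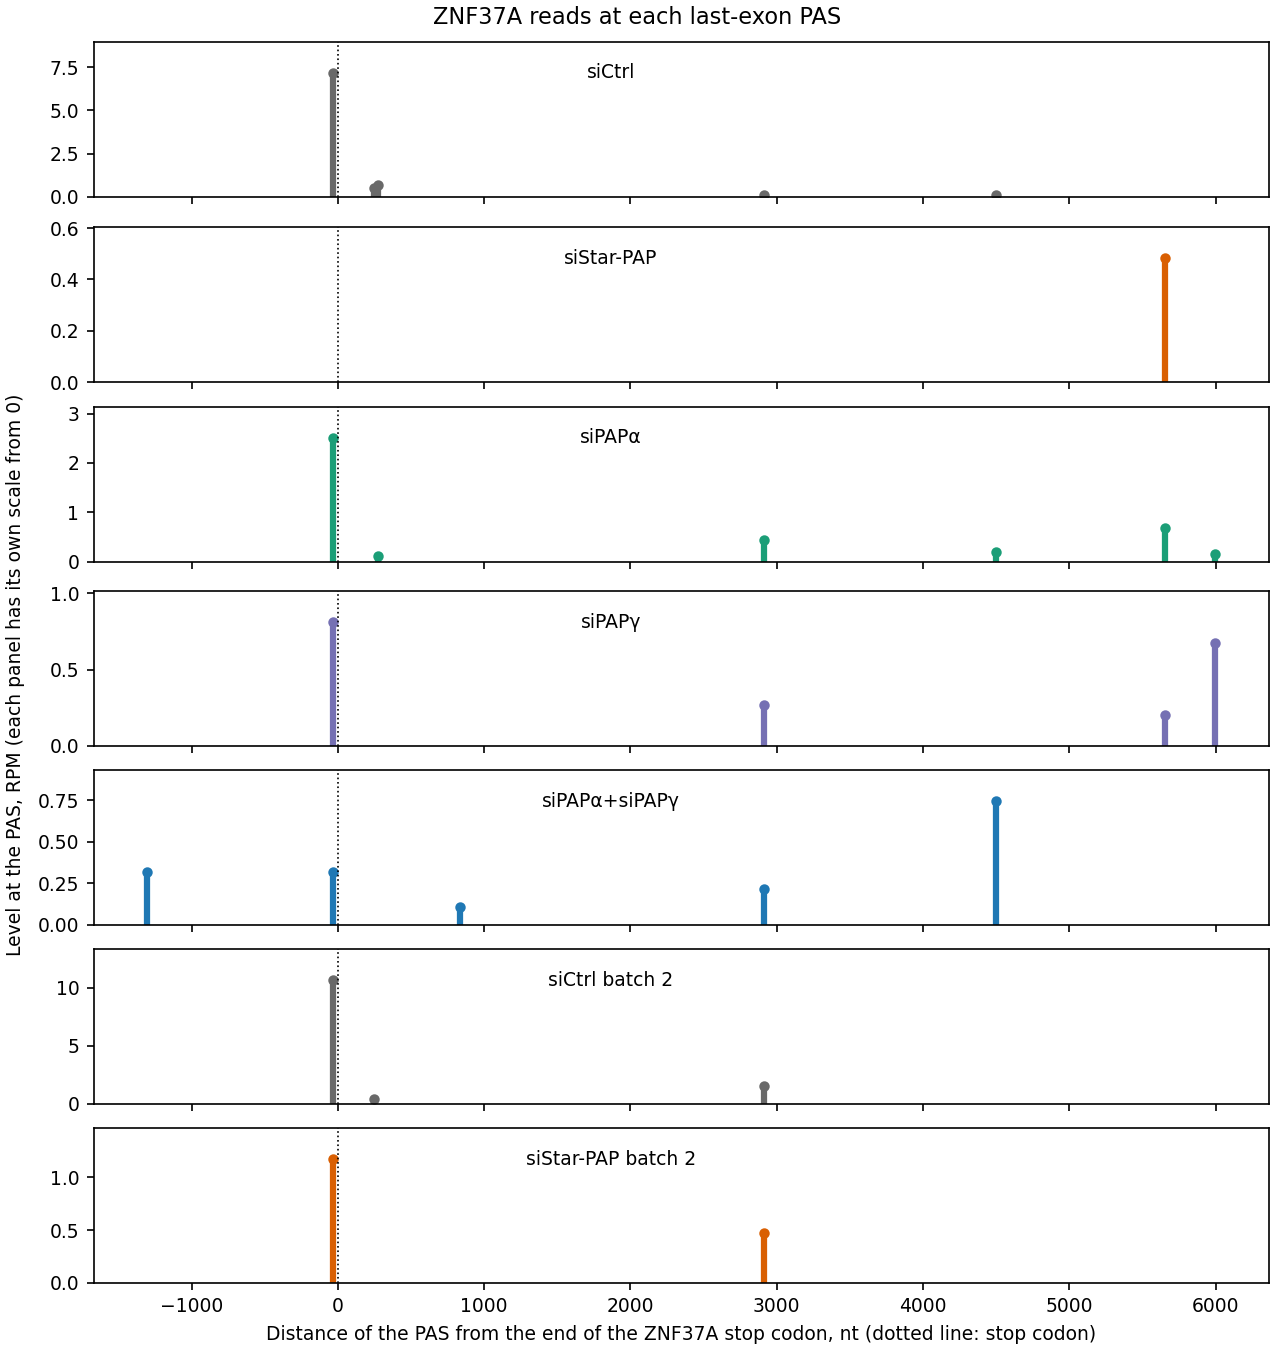
The level in RPM at each last-exon PAS of ZNF37A in the 7 libraries, plotted by distance in nt from the end of the stop codon, with a separate linear scale from 0 in each panel. The PAS just before the stop codon leads in both siCtrl libraries, and PASs from 2912 nt on hold 35.9% of the last-exon reads in siPAPα, 58.6% in siPAPγ and all 8 reads in siStar-PAP of batch 1, which are all at the PAS at 5657 nt. A PAS without a point had 0 reads or was not listed in the table of that library.

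As a share of last-exon reads, far PASs made up 2.04% in siCtrl (0.248% to 7.18%), 35.9% in siPAPα (26.7% to 46.0%), 58.6% in siPAPγ (38.9% to 76.5%) and 56.3% in siPAPα+siPAPγ (37.7% to 73.6%), by exact Clopper-Pearson intervals. In siStar-PAP they were 8 of 8 reads in batch 1 (63.1% to 100%) and 2 of 7 in batch 2 (28.6%, 3.67% to 71.0%), where siCtrl had 12.5% (5.55% to 23.2%). In the 3 libraries with KD of canonical PAPs, and in siStar-PAP of batch 1, the far share lay above that of siCtrl. Without the PAS at 5657 nt it was 23.3% in siPAPα (14.8% to 33.6%) and 53.8% in siPAPγ (33.4% to 73.4%), and siStar-PAP of batch 1 had no last-exon read left. The table of each library lists its own PASs, and the PASs at 5657 and 5998 nt were listed in the table of batch 1 only, so far PASs of siPAPα+siPAPγ were those at 2912 and 4500 nt.

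Use of each PAS within its gene was tested between siPAPα and siPAPγ with two-sided Fisher's exact tests, where 32.5% of 24622 PASs passed. The ZNF37A PAS at 5998 nt had 3.88% of the reads of the gene in siPAPα and 34.5% in siPAPγ, with an adjusted p of 0.000330 by the exact test, on 4 of 103 and 10 of 29 reads. The most used PAS had 61.2% in siPAPα and 41.4% in siPAPγ, with an adjusted p of 0.185 by the exact test. For the PASs at 2912 and 5657 nt the adjusted p was 0.876 and 0.726 by the exact test. The distal CALCB PAS had 100% of the reads in both libraries. The most used BRSK2 PAS had 9 of 12 reads in siPAPα and 2 of 2 in siPAPγ, with an adjusted p of 1 by the exact test.

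The sequences upstream of the main PASs of the 3 genes were not of one kind. In the 40 bases before a PAS, on its strand, AATAAA was searched first, then ATTAAA, then 10 variants. These were AGTAAA, the forms with another first base (TATAAA, also searched as CATAAA, and lastly the form GATAAA), those with another base near the end (AATATA, besides which came AATACA, followed in turn by AATAGA), and the rarer ones ACTAAA, then the form AAGAAA, and finally the form AATGAA. Of the 51882 PASs of batch 1, 46.4% had AATAAA, 16.1% ATTAAA without it, 20.0% another variant and 17.5% none. The distal CALCB PAS had AATAAA, whereas the most used PASs of BRSK2 and ZNF37A had other variants. AUA, read as ATA in the genome, was counted in the region 100 to 41 nt before the PAS because it is a motif linked to Star-PAP. ATA occurred at least once there in 59.4% of PASs and at least 3 times in 13.9%. It occurred 2 times before the distal CALCB PAS, 0 times before the most used BRSK2 PAS, and 0 times at position 38407734 or 1 time at 38407755 for ZNF37A. Far ZNF37A PASs had 3, 5, 4 and 2 copies in order of distance. A copy is a match of letters and not a shown binding site. G and C made up 26.7% of that region before the distal CALCB PAS, 76.7% before the most used BRSK2 PAS and 33.3% before the most used ZNF37A PAS at 38407734.

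The relatives of each gene were examined with edgeR over both batches, where 1.08% of 11878 genes passed as lower and 1.23% as higher in siStar-PAP. Among the calcitonin family and its receptors, a list of 10 genes with CALCB, 4 others were tested and 0 passed. ADM, which encodes adrenomedullin, had a log2 fold change of 0.60, ADM2 of −1.13 (adjusted p = 0.311 by edgeR), and the receptor partners RAMP1 and RAMP2 of −0.83 and 0.00. At an unadjusted p below 0.05, 1 of the 4 passed (ADM2). DESeq2 gave an adjusted p to ADM only, 0.708, which did not pass. By log2 ratio to siCtrl, ADM2 and RAMP1 were below 0 in every KD library, as the median gene was. ADM2, on 126 siCtrl reads, was at −1.27 in siPAPα, −1.99 in siPAPγ, −1.81 in siPAPα+siPAPγ, −0.78 in siStar-PAP and −2.54 in siStar-PAP of batch 2. RAMP1, on 22 reads, was at −2.59, −2.02, −2.86, −1.99 and −0.24 in that order. ADM was at −0.27, −0.79, −0.99, −0.66 and 1.34, and RAMP2 at 0.37, −0.45, −0.80, 0.08 and −0.81. CALCA, the neighbour gene that encodes calcitonin and alpha-CGRP, and the receptor gene CALCRL were not listed in the tables.

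Among LKB1, its partners and the AMPK-related kinases, a list of 19 genes with BRSK2, 16 others were tested and 1 passed. This was BRSK1, the closest relative of BRSK2, with a log2 fold change of −2.46 and an adjusted p of 0.0120 in edgeR's quasi-likelihood test. DESeq2 gave BRSK1 no adjusted p. BRSK1 had 299 reads in siCtrl, 51 in siPAPα, 63 in siPAPγ and 48 in siStar-PAP. The table of siPAPα+siPAPγ lists it with 195 reads in siCtrl and 23 in the KD, and batch 2 with 35 and 6. Its log2 ratio to siCtrl was −3.69 in siPAPα, −2.62 in siPAPγ, −3.80 in siPAPα+siPAPγ, −3.17 in siStar-PAP and −2.30 in siStar-PAP of batch 2, so it was low in every KD library, as BRSK2 was. STK11, the gene of LKB1, had a log2 fold change of −0.17 over both batches, the AMPK catalytic subunit genes PRKAA1 and PRKAA2 of −0.09 and −1.08, and MARK3, a microtubule affinity-regulating kinase, of −1.08, with adjusted p of 0.903, 0.955, 0.293 and 0.248 by edgeR. At an unadjusted p below 0.05, BRSK1, PRKAA2 and MARK3 passed as lower and MELK as higher. The log2 fold change of MELK was 0.95 (adjusted p = 0.278 by edgeR). Over the 13 list members other than BRSK2 with at least 50 siCtrl reads, the median log2 ratio was −0.21 in siPAPα, −0.66 in siPAPγ, −0.58 in siPAPα+siPAPγ and −0.68 in siStar-PAP, beside −0.36, −0.39, −0.47 and −0.51 over all genes. In siStar-PAP of batch 2 it was −0.93 over the 4 members with that many siCtrl reads, beside −0.21 over all genes.

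**Figure D4:**
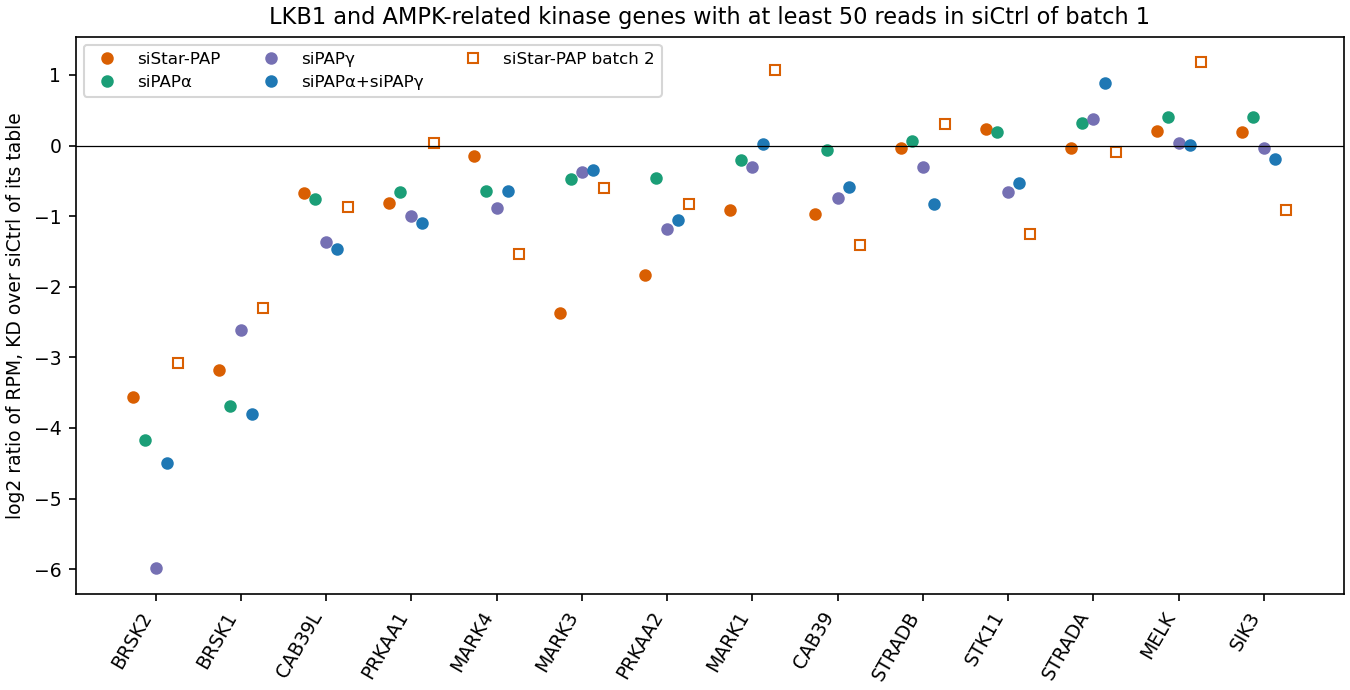
The log2 ratio of RPM of each KD library over the siCtrl library of its table for LKB1, its partners and the AMPK-related kinases with at least 50 reads in siCtrl of batch 1, with filled circles for the KD libraries set against siCtrl of batch 1 and open squares for batch 2. BRSK2 and BRSK1 lie at −2.30 or lower in all 5 KD libraries, and no other gene drawn does so in more than 1.

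In the zinc finger cluster around the centromere of chromosome 10, a list of 6 genes with ZNF37A, 4 others were tested and 0 passed. The log2 fold change over both batches was −1.49 for ZNF37BP, a pseudogene related to ZNF37A, −0.31 for ZNF33A, −0.09 for ZNF33B and −1.31 for ZNF248, with adjusted p of 0.469, 0.834, 0.987 and 0.480 by edgeR. At an unadjusted p below 0.05, 0 of the 4 passed, and DESeq2 gave them no adjusted p. ZNF37BP had 17 reads in siCtrl and 1 in siStar-PAP of batch 1, but 36 and 21 in batch 2, so its low value in batch 1 was not seen again.

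Of the neighbours on the chromosome, 3 genes on each side of each member, 0 of those tested passed as lower by edgeR. DESeq2 gave no adjusted p to those of ZNF37A, nor to SOX6, CYP2R1 and DUSP8, and called 0 of the others lower. Of the 6 around CALCB, 5 were tested by edgeR and 0 passed, also at an unadjusted p below 0.05. The developmental transcription factor gene SOX6 had a log2 fold change of −2.80 (adjusted p = 0.358 by edgeR), on 24 reads in siCtrl against 2 in siStar-PAP of batch 1 and 11 against 2 in batch 2. Its log2 ratio to siCtrl was −1.91 in siPAPα, −2.15 in siPAPγ, −1.84 in siPAPα+siPAPγ, −4.12 in siStar-PAP and −2.21 in siStar-PAP of batch 2. CYP2R1, a vitamin D 25-hydroxylase gene, had −1.52 over both batches (adjusted p = 0.464 by edgeR), the phosphodiesterase gene PDE3B 0.08 and PSMA1, a proteasome subunit gene, −0.17. Around BRSK2, 5 were tested and CHID1 rose, with a log2 fold change of 1.64 and an adjusted p of 0.0140 by edgeR. MOB2, whose nearest PAS is 6768 nt from those of BRSK2, had 0.14. Around ZNF37A, 3 were tested and 0 passed, and 1 of them, LOC399744, lay just under an unadjusted p of 0.05 (log2 fold change −1.04, adjusted p = 0.334 by edgeR).

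The genes whose 5 log2 ratios to siCtrl were most like those of each member, by Euclidean distance over 4819 genes, were named by a set rule. For CALCB they were BRSK2 (distance 2.64), the ETS transcription factor gene ETV4 (2.72) and the homeobox gene GSC (3.06). For BRSK2 they were TNFAIP8L1 (2.18), GSC (2.44) and PTBP2 (2.59), the gene of a splicing regulator of neurons. For ZNF37A they were LOC645249 (1.55), the serine racemase gene SRR (1.58) and the spindle checkpoint gene MAD1L1 (1.64). The nearest genes of CALCB and BRSK2 were low in every KD library, for example GSC with 1307 reads in siCtrl against 308, 114 and 105 in siStar-PAP, siPAPα and siPAPγ. Those of ZNF37A were lowest in siStar-PAP of batch 1 or 2, for example SRR at −3.08 and −3.10 in the siStar-PAP libraries against −1.73 in siPAPα and −1.36 in siPAPγ. The ratios share siCtrl, so likeness between genes is given as a description.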

How the data were processed

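3′READS (batch 2: 3′READS+) libraries of siRNA-treated HEK293 cells were used. Per the labels and methods, the authors aligned to hg19 with Bowtie2, retained unique alignments that end in untemplated Ts, clustered and filtered PASs and deposited raw read counts per PAS in 3 tables, each with its own PASs. 0 columns were left without a sample. The siCtrl column was repeated in the table of siPAPα+siPAPγ, with equal counts at 99.6% of 32137 shared PASs, and was counted as 1 library.

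Sense PASs were summed per gene and divided by the PASS totals of the study. Ratios have exact conditional intervals at the 95% level. Gene counts of siStar-PAP and siCtrl over both batches were fitted with edgeR (quasi-likelihood test, TMM, default filter) with batch as a block, since the labels mark a shared batch, and p-values measure only the spread between these libraries. Deviations of siCtrl and siStar-PAP from their group means correlated by batch at r = 0.900 over 6607 genes, which was how the pairing was checked. Fisher's exact tests used genes or PASs with at least 10 reads in a pair, and p was adjusted by Benjamini-Hochberg with a threshold of 0.05. Annotation was the MANE transcript of GENCODE lifted to GRCh37, which is hg19 for these chromosomes, and sequences came from that genome. The members and the lists, which include all genes named here, were chosen with earlier results of these data known. Named genes were the members, the targeted PAP genes, the relatives, the chromosomal neighbours and the 3 nearest genes by ratio.

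On simulated data, edgeR recovered 147 of 200 changed genes with 2 false calls among 11878, and the Fisher step 200 of 200 with 8 among 13212 genes with independent reads. The changed genes were drawn from those with more than 50 expected reads and were given changes of several fold. Recovery of genes with fewer reads or smaller changes was not tested. Variation between libraries had no part in that Fisher step, so its rate of false calls in the real libraries was not tested. R 4.3.3, edgeR 4.0.16, DESeq2 1.42.0, Python 3.11.15, numpy 2.4.6, pandas 2.3.3, scipy 1.17.1 and matplotlib 3.10.9 were used. Alternatives covered scaling, filters, PAS sets, the block, DESeq2 and each batch left out. Upstream antisense PASs were left out, and the 3 genes had 0 of them.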

Additional observations from a re-analysis of the deposited data

How the results depend on the processing

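The ratios of the 3 genes to siCtrl stayed below 0 under every scaling and with 1 read added. Antisense PASs could not change them, since the 3 genes had 0 of them. TMM factors moved CALCB beyond its counting interval to −3.99 in siPAPα, −3.90 in siPAPγ, −4.34 in siPAPα+siPAPγ and −2.87 in siStar-PAP, and DESeq2 size factors to −4.02, −3.92, −4.33 and −2.88, since these scalings set the median gene near 0. With only PASs listed in all 3 tables, ZNF37A, whose most used PAS is listed at no position shared by the 3 tables and drops out, was at −0.48 in siPAPα, −1.18 in siPAPγ, −1.53 in siPAPα+siPAPγ and −2.07 in siStar-PAP of batch 2 (from −2.94), and had no reads left and no value in siStar-PAP of batch 1. In the same setting its Fisher calls were lost, at log2 ratios of 0.70 for siPAPα against siPAPγ and −1.04 for siPAPα+siPAPγ against siPAPα (adjusted p = 0.682 and 0.397 by Fisher's exact test, on fewer reads), and BRSK2 in siPAPα+siPAPγ against siPAPα turned from −0.36 to 0.054, not significant in either. Over all genes, edgeR with the block called 128 lower and 146 higher. Without the replicate block it called 0 and 0, with 40 and 14 at an unadjusted p below 0.05, and the member fold changes were −3.88, −2.97 and −3.09 for CALCB, BRSK2 and ZNF37A. Without the filter it called 232 lower, and DESeq2 called 82 lower and 186 higher of 5891 genes with an adjusted p. The cause of these differences was not tested. Leaving out a batch leaves 1 library against 1, so it gives values and no calls: CALCB lay between −4.87 and −2.87, BRSK2 between −3.09 and −2.90 and ZNF37A between −3.71 and −2.77. PAS use calls numbered 8001 at 10 reads and 4972 at 50 reads, where the ZNF37A PAS at 5998 nt has too few reads to be tested. The KD libraries held 2 to 12 BRSK2 reads, which limits its ratios.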
